A study of Mus musculus with 21 samples.

Results

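The genes described here are 9 transcription factors of the early neural tube: Pax3, Pax7 and Pax6, of the paired box family, and the basic helix-loop-helix factors Olig3, Atoh1, Neurog1, Neurog2, Neurod1 and Neurod4. They were chosen by name, as regulators of dorsal progenitors and of neuronal commitment, from the 18193 genes that the array table pairs with a single symbol. A gene with several probe sets was represented by the probe set whose values varied most over all 21 arrays, without regard to group. All 9 were measured and no filter on low values was applied.

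In the embryonic neural tube, signals from the roof plate and sonic hedgehog (SHH) from the floor plate divide the progenitors into dorsal and ventral domains. Pax3 and Pax7 mark dorsal progenitors, Pax6 a broader band, Olig3 the dorsal domains next to the roof plate (and the domain that forms V3 interneurons ventrally), and Atoh1 the most dorsal neuron-producing domain of the hindbrain and spinal cord. The neurogenins drive progenitors out of the cycle toward a neuronal fate, and induce Notch ligands that signal to neighbouring cells. Factors of the NeuroD family act after the neurogenins in cells that are becoming neurons.

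Transcripts were quantified on Affymetrix mouse arrays in neurons made from mouse embryonic stem cells and purified as post-mitotic cells, with 7 groups of 3 biological replicates. In 3 lines a nestin enhancer (NesE), active in neural progenitors, drives a transcription factor that patterns ventral neurons. NesE-Lmx1a cells, grown in SHH and FGF8, give mesencephalic dopamine neurons and were taken at days 10 and 14. NesE-Nkx2.2 cells give serotonergic neurons and were taken at day 10, after SHH with either retinoic acid (RA) or FGF8. NesE-Olig2 cells give somatic motoneurons and were taken after SHH and RA (day 8). Wild type cells were taken at day 10 (FGF8) or day 8 (RA). For these, SHH appears in the sample titles but not in the source names, and the neurons are described as dorsal midbrain or dorsal hindbrain. A line and the presence of SHH therefore cannot be told apart in a comparison with wild type cells, and for the Nkx2.2 line under RA the day (10 against 8) differs as well. The labels name 1 line per factor, so line and clone cannot be told apart either.

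Each value below is a log2 deviation from the median of its probe set, so a value of 0 is the middle of the arrays and does not say whether a gene was expressed. The control probe sets named bioC, added at hybridization, separated 9 arrays from the other 12. The lower side held the 3 day 10 arrays of the Lmx1a line together with replicates 1 and 2 of 3 further groups, namely Lmx1a day 14, the Olig2 line and the FGF8 wild type. The labels name no batch, so the split is inferred from the controls. The mean of the labelling control probe sets was -3.38, -3.26 and -3.34 on the Lmx1a day 10 arrays. On all other arrays it lay between -1.60 and 1.80. In comparisons of Lmx1a day 10, this difference cannot be told apart from the group, and no fit was adjusted for it. Lmx1a averaged 8.19 ± 0.13 (SD, n = 3) in its own line at day 10, Olig2 4.44 ± 0.73 in its own line, and Nkx2-2 0.72 ± 0.52 under FGF8 and 1.64 ± 0.20 under RA in its own line, against -1.54 ± 0.74 and -0.97 ± 0.20 in the wild type groups. In these bulk samples, fewer cells of a type and less RNA per cell cannot be told apart.

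The promoters of 4 of these genes are shown because their transcripts marked different groups: Neurog1 was high in the FGF8 wild type and Pax6 in both wild type groups, whereas Olig3 was high and Neurod1 low in the Nkx2.2 line under RA. Each line gives the 250 bases before the gene's start from RefSeq (GRCm38.p6), 5′ to 3′ on the gene's strand. Capitals mark 2 motifs, searched on both strands: the E-box CANNTG, bound by basic helix-loop-helix factors, and TAAT, the core that many homeodomain proteins bind.
Neurog1, chr13:56252181-56252430, strand -: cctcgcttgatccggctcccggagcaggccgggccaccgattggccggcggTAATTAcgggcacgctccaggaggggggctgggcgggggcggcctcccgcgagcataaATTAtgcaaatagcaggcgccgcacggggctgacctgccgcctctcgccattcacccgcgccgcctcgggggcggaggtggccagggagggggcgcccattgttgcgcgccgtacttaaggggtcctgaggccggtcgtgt
Pax6, chr2:105668646-105668895, strand +: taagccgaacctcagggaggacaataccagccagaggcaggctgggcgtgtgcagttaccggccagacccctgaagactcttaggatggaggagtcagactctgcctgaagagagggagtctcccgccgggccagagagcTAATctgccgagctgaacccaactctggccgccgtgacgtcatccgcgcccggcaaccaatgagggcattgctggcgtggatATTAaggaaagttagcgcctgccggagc
Olig3, chr10:19356289-19356538, strand +: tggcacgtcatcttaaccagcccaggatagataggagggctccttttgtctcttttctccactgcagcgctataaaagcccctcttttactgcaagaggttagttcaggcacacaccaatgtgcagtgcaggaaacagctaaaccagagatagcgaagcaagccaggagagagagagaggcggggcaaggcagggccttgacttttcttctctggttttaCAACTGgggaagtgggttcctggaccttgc
Neurod1, chr2:79456637-79456886, strand -: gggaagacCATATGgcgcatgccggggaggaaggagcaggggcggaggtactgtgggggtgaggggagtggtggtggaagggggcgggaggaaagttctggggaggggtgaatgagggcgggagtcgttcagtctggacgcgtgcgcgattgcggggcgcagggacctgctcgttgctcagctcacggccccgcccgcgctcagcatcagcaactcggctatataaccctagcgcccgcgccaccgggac
The Neurog1 window holds 3 TAAT cores, 2 of them overlapping, and no E-box. The Pax6 window holds 2 TAAT cores and no E-box, whereas those of Olig3 and Neurod1 hold 1 E-box each and no TAAT core. The Atoh1 window holds neither, and that of Neurod4 holds 1 TAAT core. Of 32851 RefSeq promoter windows of the same length, 66.2% hold an E-box and 54.9% a TAAT core, so such matches are common and describe the letters of these windows only. Windows at the gene start were matched for 6 of the 9 genes.

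**Figure D1:**
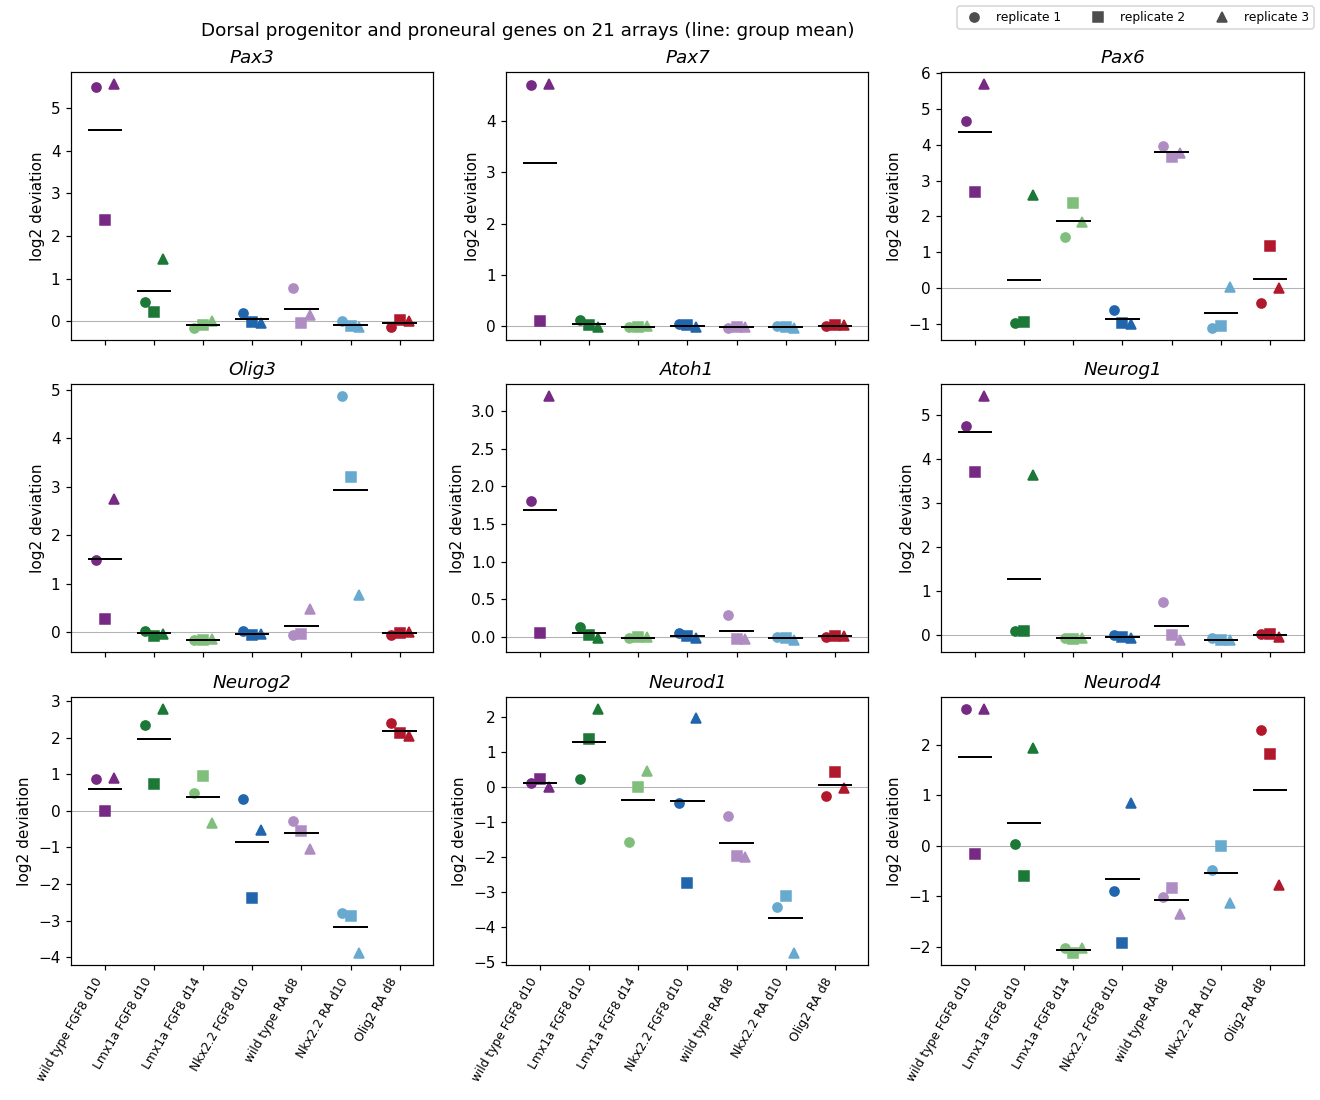
Log2 deviation of each of the 9 genes (1 panel each) on all 21 arrays, grouped by line and treatment, with a point per array and a line at the group mean. Pax3, Pax7, Atoh1 and Neurog1 stand out in the FGF8 wild type, Pax6 in both wild type groups, and Neurog2 and Neurod1 sit lowest in the Nkx2.2 line under RA; Pax7 was at 4.71 and 4.73 in FGF8 wild type replicates 1 and 3 and at 0.11 in replicate 2.

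Pax3, a paired box factor of dorsal progenitors and early neural crest, was high in the FGF8 wild type and near the median in nearly all other groups. It stood at 5.50, 2.37 and 5.56 in FGF8 wild type replicates 1, 2 and 3, at 0.45, 0.22 and 1.45 in the Lmx1a line at day 10, and between -0.15 and 0.78 on the other 15 arrays. The FGF8 wild type did not overlap any other group, although its replicate 2 lay well below the other two. Against it, Pax3 was lower by a log2 fold change of -3.77 ± 0.59 (SE) in the Lmx1a line at day 10 (limma adjusted p = 0.00178), of -4.43 ± 0.59 in the Nkx2.2 line under FGF8 (limma adjusted p = 0.000316) and of -4.18 ± 0.59 in the RA wild type (limma adjusted p = 0.000453). These comparisons share the same 3 wild type arrays. The standard errors come from a variance pooled over all 7 groups, whereas the FGF8 wild type itself had an SD of 1.83. With only the arrays compared in the fit, the Pax3 adjusted p rose to 0.198, 0.0783 and 0.0722.

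Pax7, which overlaps with Pax3 in dorsal progenitors and is prominent in the dorsal midbrain, was high on only 2 of the 21 arrays. Its deviations were 4.71, 0.11 and 4.73 in FGF8 wild type replicates 1, 2 and 3, and none of the 18 arrays outside that group exceeded 0.11. Replicate 2 of the FGF8 wild type lay within the range of the Lmx1a line at day 10 and beside the other groups. The group means gave log2 fold changes of -3.14 ± 0.79 for the Lmx1a line (limma adjusted p = 0.0342), -3.17 ± 0.79 for the Nkx2.2 line under FGF8 (limma adjusted p = 0.0242) and -3.21 ± 0.79 for the RA wild type (limma adjusted p = 0.0163), all against the FGF8 wild type. These 3 calls were the least steady of the Pax genes. In the Lmx1a comparison the call was lost without any 1 of the 3 Lmx1a arrays (adjusted p 0.0687 to 0.0731), without FGF8 wild type replicate 1 (0.158) or 3 (0.14), and with the bioC side as a block (-2.88, adjusted p = 0.0641). In the Nkx2.2 comparison it was lost without Nkx2.2 replicate 1 (0.0839) or 2 (0.0684) and wild type replicate 1 (0.13) or 3 (0.125), and in the RA comparison without FGF8 wild type replicate 1 (0.0844) or 3 (0.0818) or RA wild type replicate 2 (0.0521). Without FGF8 wild type replicate 2, the fold changes were -4.68, -4.71 and -4.75. The standard errors come from all 7 groups together, whereas the FGF8 wild type had an SD of 2.66 and any other group at most 0.06. With only the arrays compared, none of the 3 calls was made.

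Pax6, a regulator of progenitor patterning and of neurogenesis, differed from the other Pax genes by its high values in both wild type groups. It stood at 4.65, 2.69 and 5.69 with FGF8 and at 3.96, 3.65 and 3.77 with RA, and these groups overlapped. Replicates 1, 2 and 3 gave 1.43, 2.37 and 1.86 in the Lmx1a line at day 14, and -0.98, -0.95 and 2.60 at day 10. Replicate 3 at day 10 thus lay near the lowest FGF8 wild type array, far above its own 2 partners. The Olig2 line (-0.40, 1.17 and 0.02) and the Nkx2.2 line under FGF8 (-0.61, -0.95 and -1.0) and RA (-1.10, -1.05 and 0.05) were low throughout. Against the matching wild type, Pax6 was lower in every line at days 8 and 10. The log2 fold change was -4.12 ± 0.84 in the Lmx1a line (limma adjusted p = 0.00986), -5.20 ± 0.84 in the Nkx2.2 line under FGF8 (0.00136), -3.53 ± 0.84 in the Olig2 line (0.00885) and -4.49 ± 0.84 in the Nkx2.2 line under RA (0.000837). The RA and FGF8 wild types differed by -0.55 ± 0.84 (limma adjusted p = 0.665). The Lmx1a call was lost without FGF8 wild type replicate 3 (-3.44, adjusted p = 0.051) and the Olig2 call with the bioC side as a block (-3.17, adjusted p = 0.0541), while both Nkx2.2 calls held under every alternative that was run on this probe set. The Lmx1a call was also lost with only the arrays compared and with only the arrays on the low bioC side. The other Pax6 probe sets are described further on. In the Lmx1a line from day 10 to day 14 the change was 1.66 ± 0.84 (limma adjusted p = 0.24), and 2.85 without day 10 replicate 3 (adjusted p = 0.0184).

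Olig3, which acts in dorsal progenitors next to the roof plate, was high in the Nkx2.2 line under RA and, less so, in the FGF8 wild type. Its deviations were 4.86, 3.20 and 0.77 in Nkx2.2 RA replicates 1, 2 and 3 and 1.5, 0.27 and 2.76 in wild type cells with FGF8. On the other 15 arrays it reached at most 0.48. The Nkx2.2 RA arrays spread widely (SD 2.06) and overlapped the FGF8 wild type, but all lay above the RA wild type (-0.05, -0.04 and 0.48). Olig3 rose by a log2 fold change of 2.81 ± 0.72 in the Nkx2.2 line under RA against the RA wild type (limma adjusted p = 0.00792) and stood 2.96 ± 0.72 above the Olig2 line (limma adjusted p = 0.00778). Within the Nkx2.2 line it was lower under FGF8 than under RA (-2.97 ± 0.72, limma adjusted p = 0.0209). The comparison with the Olig2 line was no longer called with the bioC side as a block (2.53, adjusted p = 0.0559). On the high bioC side alone, which holds all 6 arrays of the comparison with the RA wild type, the change was again 2.81 but was not called (adjusted p = 0.0715). On that side the comparisons with the Olig2 line and between treatments were not called either (adjusted p = 0.289 and 0.142). The treatment comparison was lost without any of the 3 FGF8 arrays (0.0541 to 0.0635) and without RA replicate 1 (0.0794) or 2 (0.0685). In the fits on only the arrays compared, the 3 adjusted p values were 0.173, 0.148 and 0.263.

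Atoh1, the proneural factor of the most dorsal progenitors, followed Pax7. Its deviations were 1.80, 0.05 and 3.19 in the FGF8 wild type, and the highest of the other 18 arrays was RA wild type replicate 1 at 0.29. Replicate 2 of the FGF8 wild type thus lay among the other groups. Atoh1 was called lower than in the FGF8 wild type in the Nkx2.2 line under FGF8 (-1.67 ± 0.47, limma adjusted p = 0.0452) and in the RA wild type (-1.61 ± 0.47, limma adjusted p = 0.0384). The Lmx1a line gave -1.63 ± 0.47, which was not called (limma adjusted p = 0.0643). With all 3 FGF8 wild type arrays these results sat at the threshold: the Nkx2.2 call was lost without any 1 of the 5 arrays other than FGF8 wild type replicate 2 (adjusted p 0.0844 to 0.141), and the RA call likewise (0.0735 to 0.118). Without wild type replicate 3 the fold changes of Atoh1 dropped to -0.92 and -0.85. Without wild type replicate 2 the Lmx1a comparison became -2.45 (adjusted p = 4.17e-05). The wild type arrays left stood at 1.80 and 3.19, and this p rests on a variance pooled over all 7 groups. With all arrays the FGF8 wild type had an SD of 1.57, against at most 0.19 in any other group. With only the arrays compared, neither the Nkx2.2 nor the RA call was made.

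Neurog1, a neurogenin of dorsal spinal and cranial sensory progenitors, was high on all 3 FGF8 wild type arrays. Its deviations were 4.73, 3.69 and 5.41 there. In the Lmx1a line at day 10 they were 0.09, 0.10 and 3.64, and in the RA wild type 0.74, -0.01 and -0.11. All other groups stayed close to 0, so that Lmx1a replicate 3, just below the lowest FGF8 wild type array, was the only other high value. Neurog1 was lower than in the FGF8 wild type by -3.34 ± 0.68 in the Lmx1a line at day 10 (limma adjusted p = 0.00978), by -4.66 ± 0.68 in the Nkx2.2 line under FGF8 (0.000644) and by -4.41 ± 0.68 in the RA wild type (0.000792). The latter 2 calls held under every alternative run on this probe set, but the second Neurog1 probe set was not called in either (-0.32, adjusted p = 0.153, and -0.34, adjusted p = 0.0889). The Lmx1a call was lost with only the arrays compared (adjusted p = 0.306) and with only the arrays on the low bioC side (-2.94, adjusted p = 0.283).

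Neurog2, the neurogenin of motoneuron and midbrain dopaminergic progenitors, had a different order of groups. Its deviations were 2.42, 2.13 and 2.04 in the Olig2 line and 2.36, 0.73 and 2.79 in the Lmx1a line at day 10. They fell to -2.78, -2.86 and -3.88 in the Nkx2.2 line under RA. The Olig2 and Lmx1a day 10 arrays overlapped at the top, and the Nkx2.2 RA arrays lay below every other array. In between lay the FGF8 wild type (0.86, 0.00 and 0.91), the Lmx1a line at day 14 (0.49, 0.96 and -0.32), the RA wild type (-0.26, -0.54 and -1.04) and the Nkx2.2 line under FGF8 (0.31, -2.38 and -0.51), neighbours in this order that overlap. Neurog2 was higher in the Olig2 line than in the RA wild type by 2.81 ± 0.62 (limma adjusted p = 0.00566). In the Nkx2.2 line under RA it was lower by -2.56 ± 0.62 than in the RA wild type (0.00551) and by -5.37 ± 0.62 than in the Olig2 line (1.77e-05), the largest change of any of the 9 genes in the 9 pairwise comparisons; both calls held under every alternative run. It was higher in the Lmx1a line at day 10 than in the Nkx2.2 line under FGF8 by 2.82 ± 0.62 (0.0114), a call lost without Nkx2.2 FGF8 replicate 2 (2.06, adjusted p = 0.0523) and with the bioC side as a block (2.55, adjusted p = 0.108). That call was also lost with only the arrays compared in the fit. The Olig2 call was lost on the high bioC side alone, where that line has a single array (2.65, adjusted p = 0.236).

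Neurod1, a basic helix-loop-helix factor of differentiating neurons, shared the low values of Neurog2 in the Nkx2.2 line under RA. They were -3.41, -3.10 and -4.73 there, below all other arrays, and -0.25, 0.44 and -0.02 in the Olig2 line. The Nkx2.2 line under FGF8 ranged from -2.73 in replicate 2 through -0.45 in replicate 1 to 1.99 in replicate 3, the widest spread of any group for this gene (SD 2.36). Neurod1 was lower in the Nkx2.2 line under RA than in the Olig2 line by -3.80 ± 0.89 (limma adjusted p = 0.00614). Against the RA wild type, at -0.83, -1.98 and -1.99, the change of -2.15 ± 0.89 was not called (limma adjusted p = 0.0927). Neurod1 was called higher under FGF8 than under RA in the Nkx2.2 line (3.35 ± 0.89, limma adjusted p = 0.0341), as was Neurog2 (2.31 ± 0.62, 0.035). Both of these calls were lost without Nkx2.2 FGF8 replicate 1 or 3 or any 1 of the 3 RA replicates, with adjusted p from 0.0539 to 0.121 for Neurod1 and from 0.0597 to 0.147 for Neurog2. Neither was called on the high bioC side alone, with only the arrays compared, with array weights or without the 3 arrays named further on. Neurod1 was highest in the Lmx1a line at day 10 (0.24, 1.38 and 2.24), which was not called above the FGF8 wild type (1.16 ± 0.89, limma adjusted p = 0.592) or above the Nkx2.2 line under FGF8, except without Nkx2.2 replicate 3 (2.88, adjusted p = 0.027). The Neurod1 call against the Olig2 line was lost on the high bioC side alone (-3.72, adjusted p = 0.281). On the Nkx2.2 RA arrays the mean of 12 pan-neuronal genes was -0.74, -0.76 and -1.13, against -0.90 to 0.46 elsewhere, and that of 4 astroglial genes was 1.49, 1.60 and 1.77, against -0.82 to 1.74. Their part in the low Neurog2 and Neurod1 values was not tested.

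Neurod4, which acts with the neurogenins in newly forming neurons, varied widely within some groups (SD 1.66 in the FGF8 wild type) and little within others (SD 0.05 in the Lmx1a line at day 14). It stood at 2.72, -0.15 and 2.72 in the FGF8 wild type and at 2.30, 1.83 and -0.78 in the Olig2 line. In the Lmx1a line it was 0.04, -0.59 and 1.94 at day 10 and -2.03, -2.12 and -2.03 at day 14. The day 14 arrays were the lowest of all and did not overlap those of day 10. None of its comparisons was called: day 14 against day 10 gave -2.52 ± 0.92 (limma adjusted p = 0.118), the RA against the FGF8 wild type -2.83 ± 0.92 (0.06), the Nkx2.2 line under FGF8 against wild type -2.41 ± 0.92 (0.147), and the Olig2 line against the RA wild type 2.19 ± 0.92 (0.13). In 3 of these comparisons a single array decided. Without FGF8 wild type replicate 2 the changes became -3.79 (adjusted p = 0.0121) and -3.37 (0.029), and without Olig2 replicate 3 the last became 3.13 (0.0309).

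**Figure D2:**
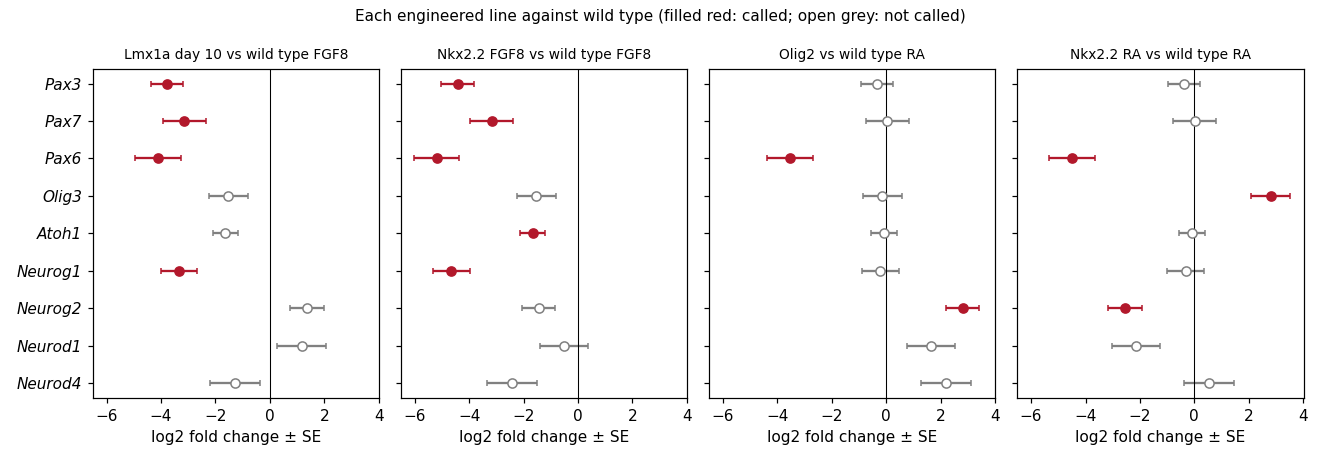
Log2 fold change ± SE of the 9 genes in each engineered line against wild type cells, in 4 panels: Lmx1a at day 10 and Nkx2.2 under FGF8, Olig2 and Nkx2.2 under RA (3 arrays per group; filled red points were called, open grey points were not). Pax6 was called lower in all 4 panels, at -4.12, -5.20, -3.53 and -4.49, whereas Neurog2 was called higher in the Olig2 panel (2.81) and lower in the Nkx2.2 RA panel (-2.56).

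Counted over the 9 genes, the FGF8 comparisons with wild type ran 1 way. Here a call means a limma p under 0.05, adjusted over all 18193 genes by the Benjamini-Hochberg method, with a change of at least 1 log2 unit. In the Lmx1a line at day 10, 0 of 9 were called higher and 4 lower (Pax3, Pax7, Pax6 and Neurog1), against 1.96% higher and 1.36% lower among all genes. In the Nkx2.2 line under FGF8, 0 were called higher and 5 lower, with Atoh1 added, against 2.83% and 1.71%. The median change of the 9 was -1.63 and -2.41, beside 0.03 and -0.01 over all genes. The RA wild type against the FGF8 wild type gave 0 higher and 4 lower (Pax3, Pax7, Atoh1 and Neurog1), against 4.29% and 3.11%, with a median of -1.72 beside -0.05. All of these share the FGF8 wild type arrays, on which the dorsal genes were high. On the low bioC side, which keeps all 3 Lmx1a arrays but only replicates 1 and 2 of the wild type, none of the 4 Lmx1a calls was made, with Pax3 at -3.23, Pax7 at -2.37, Pax6 at -3.44 and Neurog1 at -2.94. Of all genes, 1.69% were called there. Without FGF8 wild type replicate 3 the counts were 2 for the Lmx1a line, 3 for the Nkx2.2 line and 2 for the RA wild type. The shares of all genes called fell as well, from 3.31% to 2.40%, from 4.54% to 2.95% and from 7.40% to 4.41%. The Nkx2.2 count was also 3 without its own replicate 1 or 2 or wild type replicate 1 (2.36%, 3.55% and 2.85% of all genes). The RA wild type count was also 2 without FGF8 replicate 1 or RA replicate 2 (4.40% and 4.43%).

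The RA comparisons split by gene. In the Olig2 line against the RA wild type, 1 of 9 was called higher (Neurog2) and 1 lower (Pax6), against 5.50% and 4.85% of all genes. In the Nkx2.2 line under RA, 1 was called higher (Olig3) and 2 lower (Pax6 and Neurog2), against 8.84% and 9.16%. The medians of the 9 were -0.07 and -0.31, beside 0.04 and 0.01 over all genes. Pax3, Pax7, Atoh1 and Neurog1 were close to 0 in both lines and in the RA wild type itself, and gave changes between -0.38 and 0.04. Between the Nkx2.2 line under RA and the Olig2 line, which also differ in day, 1 of 9 was called higher (Olig3) and 2 lower (Neurog2 and Neurod1), against 13.1% of all genes called in either direction.

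Within a line and between the FGF8 lines the counts were small. From day 10 to day 14 of the Lmx1a line, limma called 0 of 9 in either direction, against 4.24% of all genes, and 2 had an unadjusted p under 0.05 (Neurog2 and Neurod4, both lower at day 14). The median change of the 9 was -0.79, beside -0.05 over all genes. Without Lmx1a day 10 replicate 3, 1 was called (Pax6), beside 3.97% of all genes. In the Nkx2.2 line, FGF8 against RA gave 2 higher (Neurog2 and Neurod1) and 1 lower (Olig3), against 4.31% of all genes called in either direction, but 0 to 2 genes were called when any 1 of the 6 arrays was left out, with 0 without FGF8 replicate 1 or 3 or RA replicate 1 or 2. The share of all genes called in these fits lay between 3.15% and 4.56%. The Lmx1a line at day 10 against the Nkx2.2 line under FGF8 gave 1 higher (Neurog2) and 0 lower, against 5.07% of all genes called in either direction. It gave 0 without Nkx2.2 replicate 2 and 2 without its replicate 3, beside 2.89% and 6.01% of all genes.

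On the probe sets used, the effect of the Nkx2.2 line against wild type differed between FGF8 and RA for 3 of the 9 genes. The difference of the 2 effects, FGF8 minus RA, was -4.05 ± 0.84 for Pax3 (limma adjusted p = 0.0128), -4.35 ± 1.02 for Olig3 (0.0236) and -4.34 ± 0.96 for Neurog1 (0.0172). Of all genes, 1.78% were called in this direction and 2.60% in the other. For Pax6 the difference was -0.70 ± 1.18 (limma adjusted p = 0.963), and its 2 effects were -5.20 and -4.49. The wild type samples differ in day as well as in treatment here. Pax3 and Neurog1 were already near 0 in the RA wild type (means 0.30 and 0.21). Their differences therefore cannot be told apart from those between the RA and FGF8 wild types (-4.18 and -4.41). The Olig3 difference was not called without Nkx2.2 RA replicate 2 (adjusted p = 0.052), FGF8 wild type replicate 1 (0.0548) or 3 (-3.72, 0.0669), or RA wild type replicate 1 (0.0542) or 2 (0.0511), and that of Neurog1 was not called without FGF8 wild type replicate 3 (-3.94, 0.0522), which left Pax3 as the 1 gene called. Without FGF8 wild type replicate 2, 5 genes were called, Pax7 (-4.72) and Atoh1 (-2.39) in addition. The share of all genes called rose as well, from 4.38% to 8.33%, and was 2.26% without FGF8 wild type replicate 3. The other probe sets of Pax3 (-3.24, limma adjusted p = 0.065, and -2.43, 0.203) and Neurog1 (-0.33, 0.347) were not called.

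The 3 FGF8 wild type replicates did not carry the 9 genes alike. The list of 13 cell cycle genes (among them Mki67 and Top2a, expressed in dividing cells) had a mean deviation of 2.02 in replicate 1, -1.56 in replicate 2 and 2.60 in replicate 3. The other 18 arrays lay between -1.75 and 0.95, so replicates 1 and 3 were above all others and replicate 2 was near the bottom. The 11 neural progenitor genes averaged -1.23 on replicate 2, lower than on any other array, against 0.29 and 0.40, while the pan-neuronal genes were at 0.45 on replicate 2 against 0.15 on each of the others. The samples are labelled post-mitotic, and centred values do not show how much cell cycle expression remained on any array. In replicate 2, Pax7 (0.11), Atoh1 (0.05) and Neurod4 (-0.15) were at the level of other groups, and Olig3 was at 0.27. Pax3 (2.37), Pax6 (2.69) and Neurog1 (3.69) stayed above the median there, though below replicates 1 and 3. Neurog2 and Neurod1 differed little among the 3 arrays, by less than 1 log2 unit. The part of the cell cycle genes in the calls above was not tested. Without replicate 2, 5 members were called in the Lmx1a comparison, 6 in the Nkx2.2 FGF8 comparison and 5 in the comparison of the wild types. The shares of all genes called rose as well, from 3.31% to 4.17%, from 4.54% to 6.61% and from 7.40% to 8.965%.

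**Figure D3:**
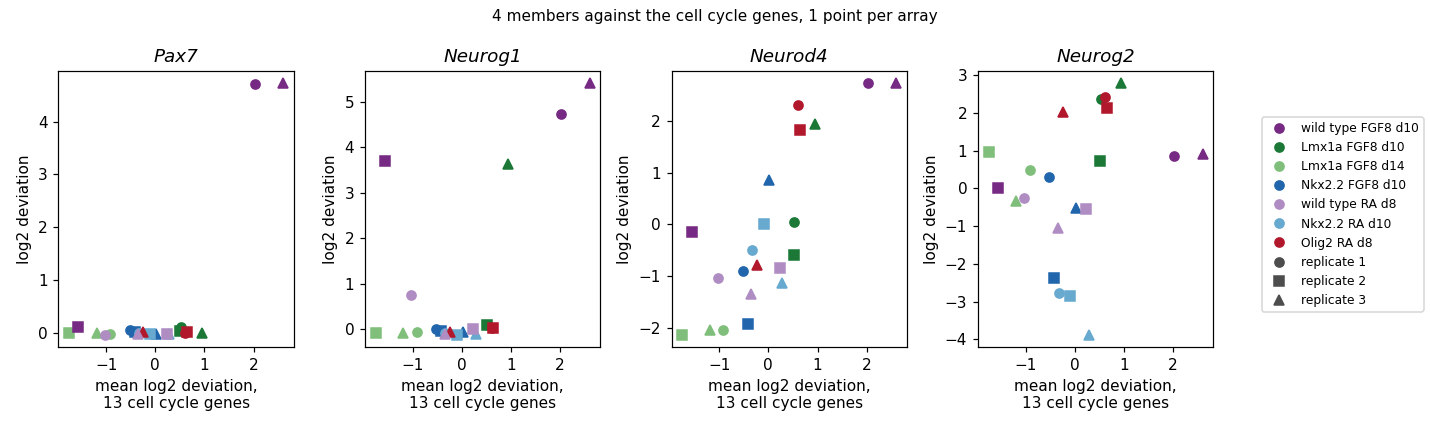
Log2 deviation of Pax7, Neurog1, Neurod4 and Neurog2 (vertical axes) against the mean log2 deviation of 13 cell cycle genes (horizontal axis), with 1 point per array, coloured by group and shaped by replicate number. FGF8 wild type replicates 1 and 3 lie far to the right at 2.02 and 2.60, and replicate 2 at -1.56, where Neurog1 is still at 3.69 and Pax7 is at 0.11.

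Lmx1a day 10 replicate 3 also differed from its partners, with a mean over the 9 genes of 1.62 against 0.28 and 0.09. Nkx2.2 FGF8 replicate 2 (-0.90 against -0.15 and 0.13) and Nkx2.2 RA replicate 3 (-1.03 against -0.33 and -0.45) lay below theirs. On Lmx1a replicate 3, Neurog1 (3.64), Pax6 (2.60), Neurod4 (1.94) and Pax3 (1.45) were each the highest of the 3 arrays. Dbx1, a homeobox gene of intermediate progenitors, was at 3.39 there against 0.58 and 0.22, and Dll3, a Notch ligand family member of newborn neurons, at 2.96 against 0.67 and 0.12. Lhx2, a LIM homeobox gene of dorsal interneurons, was at 5.24 against 1.82 and 0.37. Olig2 was at 4.89 on this array against 0.58 and 0.91. Pax7 and Atoh1 were both at -0.01. The cell cycle mean of this array was 0.95 against 0.53 and 0.51, and the mean of 8 mesenchymal genes was 0.34 against -1.52 and -1.48; their part in these values was not tested. Without it, the Neurog1 change of the Lmx1a line from day 10 to day 14 went from -1.35 to -0.17 and was not called in either case.

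Other genes of dorsal and intermediate progenitors came from a list of 18, of which 16 were measured. In the Lmx1a line at day 10 against the FGF8 wild type 0 were called higher and 6 lower, beside 1.96% and 1.36% of all genes, including Dbx1 (-4.16), Irx5 (-1.74), Irx3 (-1.5) and Zic2 (-1.33). In the Nkx2.2 line under FGF8 0 were higher and 7 lower, beside 2.83% and 1.71%, with Dbx1 at -5.37, Zic1 at -5.31, Irx5 at -4.45 and Irx3 at -3.69. The Iroquois genes pattern the neural tube above the motoneuron domain, and Zic genes are expressed dorsally. Under RA 3 were lower in the Olig2 line (Zic1 -7.34, Irx3 -1.79 and Irx5 -1.43) and 4 in the Nkx2.2 line (Zic1 -7.23, Irx5 -4.16, Irx3 -3.41 and Msx3 -1.23), beside 4.85% and 9.16% of all genes, and 0 were higher in either. Dbx1 in the FGF8 wild type stood at 6.0, 4.03 and 6.65, while Gsx1 (1.29, 0.04 and 1.93) and Msx3 (2.00, 0.05 and 2.05) were at the level of other groups in replicate 2, like Pax7 and Atoh1.

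Of the proneural and Notch list, 26 of 27 genes were measured. Against the FGF8 wild type, 0 were called higher and 4 lower in the Lmx1a line (1.96% and 1.36% of all genes), led by Ebf2 (-4.18), Id4 (-2.13), Nhlh2 (-2.07) and Nhlh1 (-1.84). In the Nkx2.2 line under FGF8, 1 was higher and 7 lower (2.83% and 1.71%), with Ebf2 at -6.81, Nhlh2 at -3.08, Ebf3 at -2.84 and Nhlh1 at -2.72. Ebf2, Nhlh1 and Nhlh2 are expressed in newly born neurons. Under RA 3 were higher and 6 lower in the Olig2 line (5.50% and 4.85%), with Neurod6 at -6.01, Cbfa2t3 at -3.05, Mfng at 2.74 and Gadd45g at 2.59, and 3 were higher and 9 lower in the Nkx2.2 line (8.84% and 9.16%). Neurod6, a NeuroD family member of maturing neurons, was 5.33 higher in the RA than in the FGF8 wild type. In the Lmx1a line from day 10 to day 14, 1 was higher and 4 were lower (4.24% of all genes in either direction), including Dll3 (-3.02), Nhlh2 (-2.45), Mfng (-2.24) and Nhlh1 (-1.81). Of the 13 cell cycle genes 0 were higher and 2 lower at day 14 (Bub1 -3.40 and Plk1 -2.65), while 8 had an unadjusted p under 0.05. Their median change was -1.99, beside -0.05 over all genes. Against wild type cells limma called 0 of these 13 in the Lmx1a line at day 10 and the Nkx2.2 line under FGF8. It also called 0 in the Olig2 line and the Nkx2.2 line under RA. In these comparisons, in that order, 1, 5, 0 and 0 had an unadjusted p under 0.05. The list medians were -0.23, -1.36, 0.77 and 0.40. In the RA against the FGF8 wild type the list median was -1.23, also with 0 called.

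Of the genes of interneurons that arise from dorsal progenitors, 12 of 13 were measured. Of these, 0 were called higher and 8 lower in each of the Lmx1a, Nkx2.2 FGF8 and Olig2 comparisons, and 1 higher and 7 lower in the Nkx2.2 line under RA. The shares of all genes called lower in these comparisons were 1.36%, 1.71%, 4.85% and 9.16%. Lbx1, a gene of dorsal interneurons, stood at 5.65, 6.72 and 4.50 in the FGF8 wild type and at 7.45, 6.92 and 7.05 in the RA wild type. It lay between -0.04 and 0.09 on every array of the 3 lines. Lhx9, of the lineage that Atoh1 founds, was at 8.04, 5.75 and 7.63 in the FGF8 wild type and between -0.08 and -0.05 in the RA wild type. Replicate 2 of the FGF8 wild type thus kept high Lbx1 and Lhx9 on an array where Atoh1 and Pax7 were near 0. Of the ventral list of 10, 4 were called higher in the Lmx1a line, 5 in the Nkx2.2 line under FGF8 and 7 under RA, with 0 lower in each, and 2 were higher and 2 lower in the Olig2 line, beside 1.96%, 2.83%, 8.84% and 5.50% of all genes higher; this list holds the driven genes Nkx2-2 and Olig2. Markers of other cells moved too: the mean of 8 skeletal muscle genes was 2.50, 1.57 and 0.75 in the RA wild type against -0.23 to 0.75 elsewhere, and that of 8 mesenchymal genes -0.15, 3.05 and 2.38 against -1.52 to 1.76. The mean of 7 neural crest genes was 0.68, 0.18 and 1.06 in the FGF8 wild type, 1.03, 1.66 and 1.38 in the RA wild type and 1.12, 0.98 and 0.72 in the Olig2 line, against -0.86 to -0.08 elsewhere. Of these, Tfap2a, a factor of the neural crest, was called lower than in wild type at -4.29 for Lmx1a, -4.08 for Nkx2.2 under FGF8, -5.88 for Olig2 and -5.91 for Nkx2.2 under RA. Called higher and lower among the 7 were 0 and 1 for Lmx1a and 0 and 2 for Nkx2.2 under FGF8. They were 2 and 2 for Olig2, with Ngfr (1.60) and Erbb3 (1.48) higher, and 0 and 3 for Nkx2.2 under RA. The shares of all genes called lower were 1.36%, 1.71%, 4.85% and 9.16%, and 5.50% were higher for Olig2. The part of these markers in the results for the 9 genes was not tested.

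The genes most like each member were named as the 3 with the highest Pearson r over the 21 arrays, which is a description of arrays that share groups. For Pax3 they were Eya2 (r = 0.98), Tbr1 (0.98) and Tfap2d (0.97). For Pax7 they were Wnt8b (1.00), Fzd10 (0.99) and Ticrr (0.99), and for Atoh1 Slc45a3 (1.00), Gm11627 (0.99) and Gsx1 (0.99). These high values rest on FGF8 wild type replicates 1 and 3: Wnt8b was at 2.69, 0.04 and 3.02 in that group and between -0.03 and 0.09 on the other 18 arrays. Neurog1 was closest to Dbx1 (0.97), Eya2 (0.95) and Pax3 (0.94). Pax6 was closest to Pde1b (0.87), Ebf2 (0.87) and Tfap2b (0.86), of which Tfap2b was at 9.20, 7.47 and 9.02 in the FGF8 wild type. Neurog2 had Igsf21 (0.86), Met (0.81) and Neurod1 (0.80), and Neurod1 had Syne2 (0.89), Islr2 (0.89) and Trnp1 (0.84). Neurod4 was closest to Arhgap11a (0.91), Fam83d (0.91) and Sgo2a (0.88), which act in cell division, and Olig3 to Nqo1 (0.86), Omg (0.83) and Adgrg2 (0.83).

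The 9 genes have 20 probe sets, and for some genes the choice decided what was seen. The 3 Pax3 probe sets agreed in direction, at -4.43, -3.24 and -2.62 in the Nkx2.2 line under FGF8 against wild type, and the 2 Neurod1 probe sets at -3.80 and -3.51 in the Nkx2.2 line under RA against the Olig2 line. The second Neurod1 probe set also gave a call against the RA wild type (-2.13 ± 0.63, limma adjusted p = 0.0211, over all probe sets) that the one used did not. Neurog1 was read almost entirely by 1 of its 2 probe sets: the other had an SD of 0.17 over the 21 arrays and changed by -0.32 ± 0.12 in the Nkx2.2 line under FGF8, where the one used changed by -4.66. For Pax6 in the same comparison, a second probe set gave -3.22 ± 0.79, a further one -0.77 ± 0.20, and the last 2 varied with SDs of only 0.03. Under RA the second Pax6 probe set was not called, at -2.02 in the Olig2 line (limma adjusted p = 0.107) and -2.18 in the Nkx2.2 line (0.0581). The second Pax7 probe set changed by -0.72 ± 0.18 under FGF8, less than the 1 log2 unit required, and its values correlated with the one used at r = 0.99. For Neurod4 a second probe set gave calls that the one used did not, for the Olig2 line (2.09 ± 0.62, limma adjusted p = 0.0335) and for the RA against the FGF8 wild type (-2.40 ± 0.62, 0.0235), and the third was flat (SD 0.11).

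**Figure D4:**
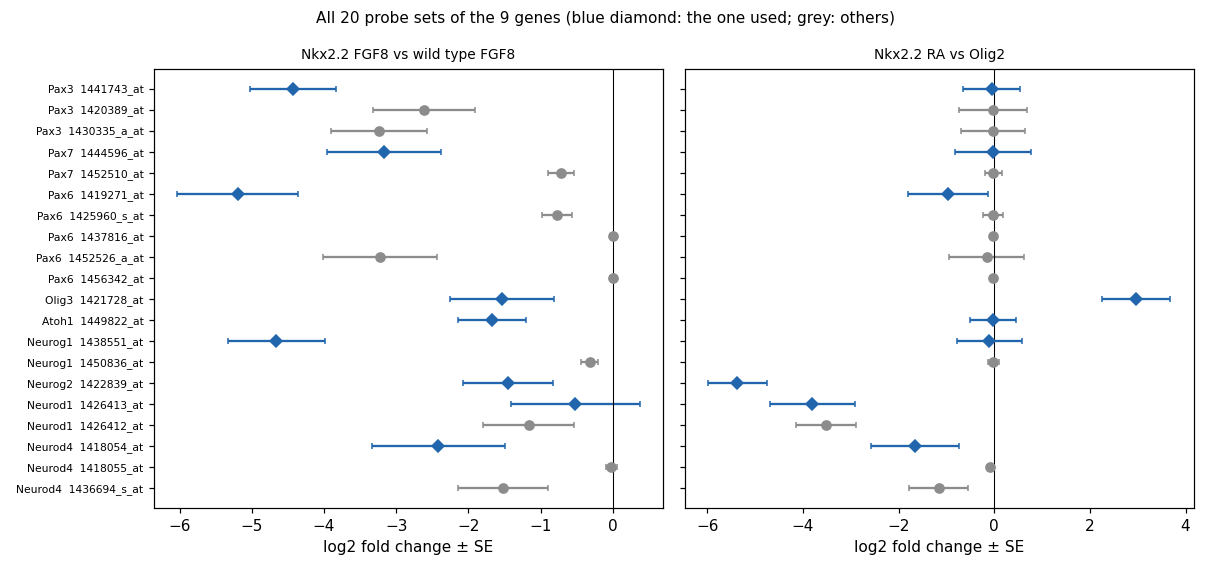
Log2 fold change ± SE of all 20 probe sets of the 9 genes, in the Nkx2.2 line under FGF8 against wild type (left) and under RA against the Olig2 line (right); blue diamonds are the probe sets used and grey circles the others. The 3 Pax3 probe sets lie at -4.43, -3.24 and -2.62 on the left, while the second Neurog1 probe set lies near 0 at -0.32.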

How the data were processed

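The 21 arrays were read from 1 deposited table of log2 signals that the authors made with GCRMA, per the submitters' processing notes, from 2 ug of total RNA per sample. The values are also centred: no probe set has over 13 values on either side of 0, and an exact 0 occurs in 79.2% of them, as subtraction of a median over 27 arrays would give. Only deviations, not levels or detection, can therefore be read. Of 45101 probe sets, 64 controls were set aside, and 34945 of the others carried 1 gene symbol, 932 several and 9160 none in the platform annotation used. A gene's most variable probe set, by SD across all arrays, stood for it, which gave 18193 genes.

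Tests used limma 3.58.1 (R 4.3.3; lmFit with 1 mean per group, contrasts, eBayes), with 14 residual and 1.11 prior degrees of freedom, Benjamini-Hochberg adjustment over all genes within each of 9 comparisons and 1 interaction. The code was tested on simulated data. The number of arrays limits the precision. The labels call the replicates biological. Residuals of arrays with the same replicate number correlated at 0.00603 on average over 63 pairs, against -0.00337 over 126 pairs with different numbers, so the numbers were not used as a block in the results given. The 9 genes, the 13 lists of 148 genes (139 measured) and the comparisons were chosen with earlier results of these data known. Named genes are the 9 members, up to 4 called members of largest change per list and comparison, and the 3 genes most correlated with each member; genes named for single arrays, for 2 arrays of the wild type, or as examples of a list (Lbx1, Lhx9, Lhx2, Gsx1, Msx3, Dll3 and Olig2) were chosen after their values were seen. Alternatives were the replicate block (statmod 1.5.0 serves the robust moderation), only the arrays compared, array weights, trend and robust moderation, a gene's probe sets averaged or each tested alone, arrays centred on their median, a range filter of 1 log2 unit, a threshold of 2 log2 units, the bioC split as a block and within each side, leaving out each replicate, and leaving out 3 arrays that stand apart. Reading each further probe set of a member side by side was added after the data were seen.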

Additional observations from a re-analysis of the deposited data

Results flagged for a closer look

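On the probe sets used, the effect of the Nkx2.2 line against wild type cells differed between FGF8 and RA for 3 of the 9 genes. This was by a test of the difference itself. The difference (FGF8 effect minus RA effect, limma) was -4.05 for Pax3, -4.35 for Olig3 and -4.34 for Neurog1. It was not called on the other probe sets of Pax3 (-3.24 and -2.43) or of Neurog1 (-0.33). For Pax3 and Neurog1 the line effects were -4.43 and -4.66 under FGF8, against -0.38 and -0.31 under RA. In the RA wild type both genes were already near the level of the Nkx2.2 line under RA. Their means were 0.30 and 0.21, against -0.08 and -0.11. The RA and FGF8 wild types, which also differ in day, differed by -4.18 and -4.41. For these genes the difference of line effects cannot be told apart from the difference between the wild types. For Olig3 the line effects had opposite signs, -1.53 under FGF8 and 2.81 under RA, of which only the latter was called.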

How the results depend on the processing

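On the probe sets used, no called value changed sign under any alternative run. Of the further probe sets, the flat Pax6 pair gave 0.04 and 0.02 in the Lmx1a comparison and 0.03 and 0.03 in the Olig2 comparison, where the one used was called lower. Of the values recomputed for single genes, 1478 kept their direction and side of the threshold or moved by less than the replicate spread, 88 fell below the threshold, 43 rose above it and 29 moved further. The counts of members called were 4 (Lmx1a day 10 against wild type), 5 (Nkx2.2 FGF8 against wild type), 2 (Olig2 against wild type), 3 (Nkx2.2 RA against wild type), 4 (RA against FGF8 wild type), 0 (Lmx1a day 14 against day 10), 3 (Nkx2.2 FGF8 against RA), 1 (Lmx1a day 10 against Nkx2.2 FGF8), 3 (Nkx2.2 RA against Olig2) and 3 (interaction). With the replicate number as a block they were the same, at 4, 5, 2, 3, 4, 0, 3, 1, 3 and 3, although the numbers do not pair the arrays. With only the arrays compared, which leaves fewer arrays for the spread, they were 0 for Lmx1a day 10, 2 for Nkx2.2 FGF8, 1 for the wild types, 0 for Nkx2.2 FGF8 against RA, 0 for Lmx1a against Nkx2.2 and 1 for the interaction. With array weights, whose estimation stopped before it converged, the counts of members were 8 (Lmx1a day 10), 9 (Nkx2.2 FGF8), 4 (Olig2), 8 (wild types), 3 (day 14), 1 (Nkx2.2 FGF8 against RA), 2 (Lmx1a against Nkx2.2), 5 (Nkx2.2 RA against Olig2) and 6 (interaction). The share of all genes called rose as well, from 3.31% to 12.2% for Lmx1a, 4.54% to 13.2% for Nkx2.2 FGF8, 7.40% to 15.4% for the wild types and 4.38% to 19.2% for the interaction. The cause was not tested. With the bioC side as a block the counts were 1 for Olig2 and 0 for Lmx1a against Nkx2.2, beside 7.58% and 2.69% of all genes. On the low bioC side 0 members were called for Lmx1a day 10, and on the high side 1 for Olig2, 0 for Nkx2.2 FGF8 against RA and 1 for Nkx2.2 RA against Olig2, from fewer arrays. A further fit left out the 3 arrays that stand apart (Lmx1a day 10 replicate 1, FGF8 wild type replicate 2 and Nkx2.2 FGF8 replicate 1). There 1 was called for Nkx2.2 FGF8 against RA and 5 for the interaction, beside 5.15% and 8.95% of all genes. Leaving out each replicate gave 2 to 5 for Lmx1a day 10, 3 to 6 for Nkx2.2 FGF8, 2 to 3 for Olig2, 3 in every case for Nkx2.2 RA, 2 to 5 for the wild types, 0 to 1 for day 14, 0 to 2 for Nkx2.2 FGF8 against RA, 0 to 2 for Lmx1a against Nkx2.2, 3 in every case for Nkx2.2 RA against Olig2 and 1 to 5 for the interaction. The share of all genes called then ranged from 1.97% to 4.17% for Lmx1a day 10 and 2.36% to 6.61% for Nkx2.2 FGF8. Under every alternative run on the probe sets used, Pax6 and Neurog1 were called lower in the Nkx2.2 line under FGF8, Pax6 and Neurog2 lower in the Nkx2.2 line under RA, Neurog1 lower in the RA than in the FGF8 wild type, and Neurog2 lower in the Nkx2.2 line under RA than in the Olig2 line.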

Other observations

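Several relatives of the 9 genes differed between groups. Neurog3, the third neurogenin, known from endocrine pancreas and expressed in the ventral neural tube, was at 3.96, 3.69 and 2.73 in the Nkx2.2 line under RA, above the other 18 arrays, and was called higher there than in the RA wild type (2.49 ± 0.59, limma adjusted p = 0.00497) and the Olig2 line (2.58 ± 0.59, limma adjusted p = 0.00545). These are the arrays on which Neurog2 and Neurod1 were lowest. Neurod6 was at 6.40, 4.58 and 6.93 in the RA wild type, and at 2.31 in FGF8 wild type replicate 2 against -0.18 and -0.20 in replicates 1 and 3, the reverse of the order seen for Neurod4. Pax8, a paired box gene of dorsal inhibitory interneurons, was at 6.77, 6.38 and 4.90 in the RA wild type and at 0.78 in FGF8 wild type replicate 2, with the other 17 arrays between -0.05 and 0.06. Msx1, a homeobox gene that acts downstream of Lmx1a in dopaminergic progenitors and also marks dorsal progenitors, rose in the Lmx1a line from day 10 (0.04, 0.00 and 0.25) to day 14 (1.61, 1.43 and 2.63), by 1.79 ± 0.21 (limma adjusted p = 0.000125).

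Hes5, a Notch target of progenitors, was at 3.42 and 4.35 in FGF8 wild type replicates 1 and 3 and at -0.13 in replicate 2. Tlx3, a homeobox gene of dorsal excitatory neurons, was at 4.91 and 4.73 there and at 1.15 in replicate 2. Hes5 was named with its values known.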
